A study of Mus musculus with 17 samples.

Results

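The respiratory chain genes described here are 86 of the 19751 genes measured in the lungs of 17 Balb/c mice. They were chosen by symbol, as genes named Nduf with a, b, c, s or v, Uqcr, Cox4 to Cox8, Sdha to Sdhd and Atp5. The rule uses no measured value, but it was set with earlier results of these data known. By complex they are 34 genes of complex I, 4 of complex II, 8 of complex III, 16 of complex IV (Ndufa4 and Ndufa4l2 included) and 17 of complex V, together with 7 Ndufaf genes for complex I assembly factors. The 3 forms of complex IV subunits typical of muscle, Cox6a2, Cox7a1 and Cox8b, were left out by the same rule. Cox7c and Ndufb4 are not analysed here because their probe sets carried several gene symbols.

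Each mouse's lung RNA was hybridised to an array of its own, of the Affymetrix type Mouse Gene 1.0 ST. The anti-RGMb group (6 mice) was sensitized and challenged with ovalbumin (OVA) and treated with aRGMB mAb, an antibody to RGMb, which is a co-receptor for bone morphogenetic proteins that binds neogenin. The isotype group (5 mice) had OVA at both steps and an isotype antibody, and the saline group (6 mice) had saline at both steps, with no antibody given in the labels. No group had the anti-RGMb antibody without OVA, the mice's age is not given in the labels, and all lungs were taken at the same treatment time point. The mouse numbers in the labels form 2 replicate sets, called experiments 1 and 2 here. Experiment 1 held mice 1, 2 and 3 of all 3 groups, and experiment 2 held mice 1-2, 2-2 and 3-2 of the anti-RGMb and saline groups and mice 1-2 and 2-2 of the isotype group. Signals lay on another level in each experiment, so each mouse's level is given below as its log2 signal minus the saline mean of its own experiment. Changes are log2 differences between groups from limma with a term for the experiment, and values after ± are standard errors unless SD is written. A gene passed if its p, adjusted by Benjamini and Hochberg's method across the 19751 genes, was under 0.05.

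The respiratory chain lies in the inner mitochondrial membrane. Complexes I and II pass electrons from NADH and succinate to ubiquinone, complex III passes them on to cytochrome c, and complex IV, cytochrome c oxidase, passes them to oxygen. Complexes I, III and IV pump protons, and complex V, the ATP synthase, uses the gradient to make ATP. Most subunits are encoded in the nucleus and a small set by mitochondrial DNA. Some nuclear subunits exist in forms that belong to certain tissues or oxygen levels, of which Cox4i2 is a form of subunit 4 known for its presence in lung and Ndufa4l2 a relative of Ndufa4 induced by low oxygen.

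In lungs given OVA and isotype antibody, 23 of the 86 genes were higher than in saline lungs and 6 were lower by limma, and 57 did not pass. That is 26.74% of the members higher and 6.977% lower, beside a background over all genes of 14.6% higher and 21% lower. The median change of the members was 0.08, beside a median of -0.04 over all genes. In anti-RGMb lungs 3 of the 86 genes were higher than in isotype lungs and 23 were lower, beside a background of 11.1% higher and 10% lower, and the median change was -0.11 beside 0.03 over all genes. The 23 lower genes became 14 without isotype mouse 2-2, and also 14 with mouse number as a block, and the 6 genes lower in isotype than in saline lungs became 3 without saline mouse 3, saline mouse 1-2 or isotype mouse 1-2. Both comparisons use the same isotype arrays, so a gene high by chance in those 5 arrays moves in opposite directions in them, and their values are given side by side only. Between anti-RGMb and saline lungs 0 of the 86 genes passed in either direction by limma, beside a background of 4.26% higher and 2.24% lower. At an unadjusted p under 0.05 there were 7, with 3 higher and 4 lower, and the smallest adjusted p by limma was 0.0552, for Atp5g3.

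The changes were small. The largest rise, that of Cox5a, was 1.55-fold, and the mean over all 86 genes lay at 0.05 to 0.15 in the isotype mice, at -0.08 to 0.04 in the anti-RGMb mice and at -0.05 to 0.06 in the saline mice. Isotype mice 3 and 1-2 lay within the range of the saline mice, and all 5 lay above the anti-RGMb mice. In whole lung, fewer cells of a type and less RNA per cell cannot be told apart, and the array values hold for the lung as a mixture. No member's change differed between the experiments past the threshold, in any of the 3 comparisons (smallest adjusted p of the interaction by limma 0.132, for Atp5k).

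**Figure D1:**
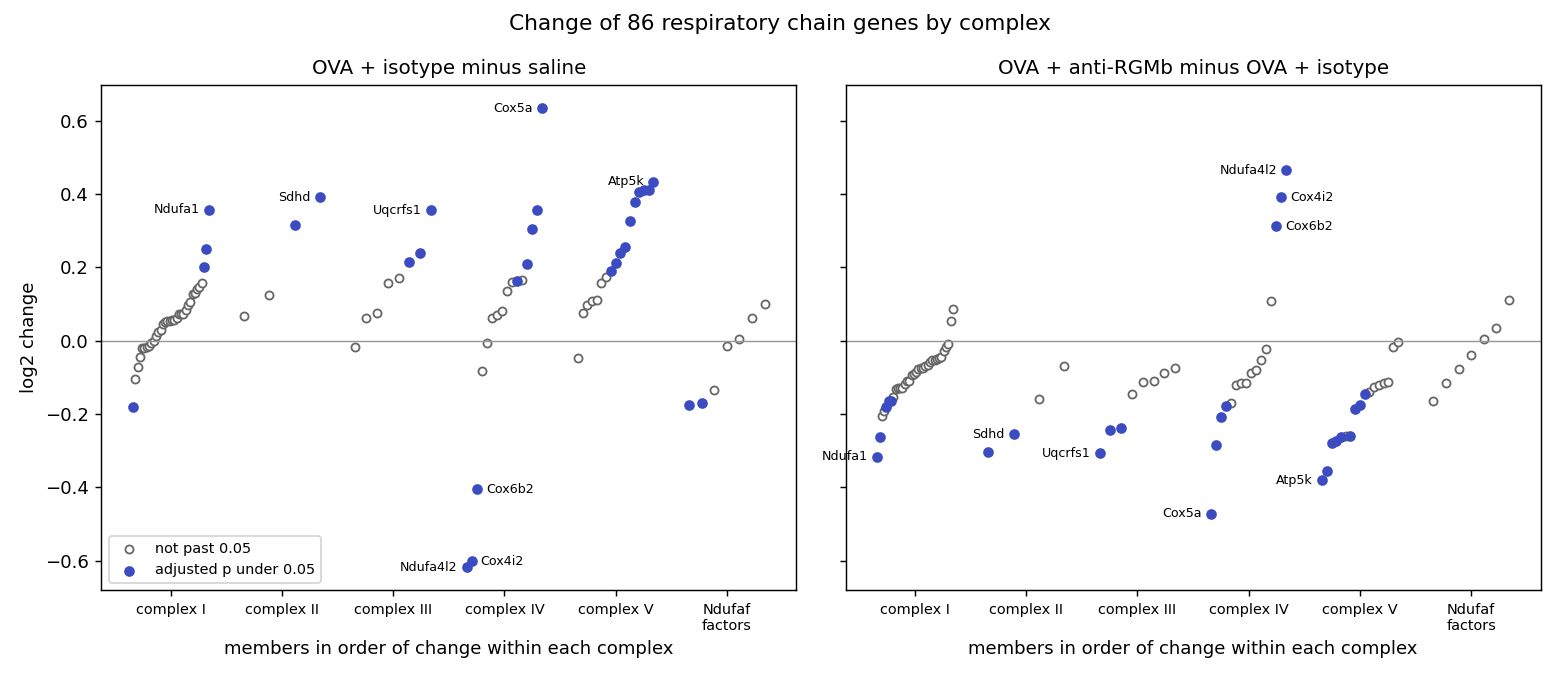
Log2 change of each of the 86 genes by complex, in isotype minus saline lungs (left) and in anti-RGMb minus isotype lungs (right), with genes in order of change within each complex and filled points past the adjusted p threshold of 0.05. Most filled points of complex V lie above 0 on the left and below 0 on the right, while Cox4i2 and Ndufa4l2 of complex IV lie at -0.60 and -0.62 on the left and at 0.39 and 0.46 on the right.

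Complex I, the NADH dehydrogenase, had the smallest share of genes that passed in isotype against saline lungs. Of its 34 genes 3 were higher and 1 lower in isotype than in saline lungs, with a median change of 0.06, and 5 passed in anti-RGMb against isotype lungs, all of them lower, with a median of -0.09. The shares in isotype lungs, 8.824% higher and 2.941% lower, were under the 14.6% and 21% over all genes. In anti-RGMb against isotype lungs 14.71% were lower, beside 10% of all genes. Of the 6 core subunits measured, which carry out the electron transfer, 0 passed in isotype against saline lungs by limma, with changes of -0.10 to 0.15 and 1 at an unadjusted p under 0.05. Ndufv2, a core subunit with an iron-sulfur cluster, was lower by 0.16 ± 0.056 in anti-RGMb than in isotype lungs (adjusted p = 0.0442 by limma). This gene, outside the naming rule, lost the call in 11 of the 17 fits that each left out 1 mouse (adjusted p up to 0.128).

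The 3 complex I genes that passed as higher in isotype lungs encode accessory subunits. They are 10.71% of the 28 accessory genes, under the 14.6% of all genes. Ndufa1, a small subunit of the membrane arm, had levels of -0.15, 0.02 and 0.28 (lowest, median and highest) in anti-RGMb mice, of 0.40, 0.39, 0.12, 0.24 and 0.60 in isotype mice 1, 2, 3, 1-2 and 2-2, and of -0.27, -0.06 and 0.34 in saline mice. The isotype mice lay high as a group, but overlapped with both other groups. Its change was 0.36 ± 0.108 in isotype against saline lungs (adjusted p = 0.0145 by limma) and -0.32 ± 0.108 in anti-RGMb against isotype lungs (adjusted p = 0.0447). Without isotype mouse 2-2 the first became 0.29 (adjusted p = 0.0568), and the second lost the call in 10 of the 17 fits without 1 mouse (adjusted p up to 0.152). Ndufb5, another accessory subunit of the membrane arm, was steadier, with a rise of 0.25 ± 0.069 in isotype lungs and a fall of 0.26 ± 0.069 in anti-RGMb against isotype lungs. Ndufa7 was the complex I gene that fell in isotype lungs (-0.18 ± 0.062, adjusted p = 0.0295), a call lost without any 1 of saline mice 1, 3 or 1-2 or isotype mice 1, 3 or 1-2 (adjusted p up to 0.0911).

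Among the 7 Ndufaf genes, whose products help to build complex I and are not part of it, 2 passed in isotype lungs, both lower. That is 28.57% lower and 0% higher, beside 21% lower and 14.6% higher over all genes, and so not far from the background. Ndufaf3 and Ndufaf4, partners in an early assembly step, were lower by 0.17 each (adjusted p = 0.0307 and 0.0388). Ndufaf3 lost the call without any 1 of saline mice 2, 3 or 1-2 or isotype mice 1, 2 or 1-2 (adjusted p up to 0.0967). Ndufaf4 lost it without any 1 of saline mice 2, 3, 1-2 or 3-2 or isotype mice 2, 3 or 1-2 (adjusted p up to 0.0918).

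Complex II, succinate dehydrogenase, is also an enzyme of the citric acid cycle and has 4 subunits, all nuclear. The iron-sulfur subunit Sdhb and the membrane anchor Sdhd rose in isotype lungs, while the flavoprotein Sdha and the anchor Sdhc did not pass. Sdhd stood at -0.02, 0.16 and 0.21 (lowest, median and highest) in anti-RGMb mice, at 0.36, 0.45, 0.17, 0.47 and 0.50 in isotype mice 1, 2, 3, 1-2 and 2-2, and at -0.09, -0.03 and 0.12 in saline mice. All 5 isotype mice lay above all 6 saline mice, and isotype mouse 3 lay within the anti-RGMb range. The change was 0.39 ± 0.065 in isotype against saline lungs (adjusted p = 0.000108 by limma) and -0.25 ± 0.065 in anti-RGMb against isotype lungs (adjusted p = 0.00849).

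Sdhb had levels of -0.09, 0.03 and 0.10 in anti-RGMb mice, 0.35, 0.33, 0.15, 0.27 and 0.48 in the isotype mice and -0.08, 0.00 and 0.06 in saline mice, with no overlap of the isotype mice with either group. Its changes were 0.32 ± 0.057 and -0.30 ± 0.057. Sdha varied little in any group (SD 0.03 in anti-RGMb, 0.06 in isotype and 0.04 in saline mice), and its change of 0.07 ± 0.041 in isotype lungs did not pass (adjusted p = 0.238). Sdhc varied more within the saline group (SD 0.22, n = 6) than it differed between groups (0.12 ± 0.102, adjusted p = 0.395).

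Of the 8 genes of complex III, the cytochrome c reductase, 3 were higher in isotype than in saline lungs and 3 lower in anti-RGMb than in isotype lungs. Each is 37.5%, beside 14.6% of all genes higher in the first comparison and 10% lower in the second. Uqcrfs1, the Rieske iron-sulfur protein, had levels of -0.12, 0.01 and 0.22 (lowest, median and highest) in anti-RGMb mice, 0.48, 0.43, 0.27, 0.09 and 0.56 in isotype mice and -0.08, 0.02 and 0.04 in saline mice. The isotype mice lay above every saline mouse, although isotype mouse 1-2 lay among the anti-RGMb mice. Its changes were 0.36 ± 0.074 (adjusted p = 0.00093 by limma) and -0.31 ± 0.074 (adjusted p = 0.00604). Uqcrc1, a core protein of the matrix side, changed by 0.24 ± 0.059 and -0.24 ± 0.059, and the small subunit Uqcrq by 0.22 ± 0.063 and -0.24 ± 0.063. The second core protein, Uqcrc2, had changes of 0.06 and -0.09 and did not pass.

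Complex IV held the largest changes in both directions. Of its 16 genes 5 were higher and 3 lower in isotype than in saline lungs, and 3 were higher and 4 lower in anti-RGMb than in isotype lungs. In isotype lungs that is 31.25% higher and 18.75% lower, beside 14.6% and 21% over all genes, so the share lower was near the background. In anti-RGMb against isotype lungs it is 18.75% higher and 25% lower, beside 11.1% and 10%. The genes that rose in isotype lungs encode subunits of the form found in most tissues, Cox5a, Cox5b, Cox4i1 and Cox7b, together with Cox7a2l, a relative of Cox7a2. The genes that fell are Cox4i2, Ndufa4l2 and Cox6b2, which are forms or relatives of subunits that have a widespread partner. Cox7b2 and Cox8c, relatives of Cox7b and Cox8a, did not pass.

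Cox5a, which binds subunit 4 on the matrix side, had levels of -0.00, 0.19 and 0.21 (lowest, median and highest) in anti-RGMb mice, 0.74, 0.56, 0.57, 0.51 and 0.80 in isotype mice 1, 2, 3, 1-2 and 2-2, and -0.06, -0.00 and 0.09 in saline mice. The isotype mice lay above all mice of the other groups, and the anti-RGMb mice, apart from 1, lay above all saline mice. The change was 0.64 ± 0.060 in isotype against saline lungs (adjusted p = 1.99e-07 by limma) and -0.47 ± 0.060 in anti-RGMb against isotype lungs (adjusted p = 3.33e-05). Between anti-RGMb and saline lungs it was 0.16 ± 0.057 and did not pass (adjusted p = 0.101). Within experiments 1 and 2 the isotype change was 0.62 and 0.66. Cox5b, a subunit that binds zinc, changed by 0.36 ± 0.052 and -0.28 ± 0.052, again with all isotype mice above all mice of the other groups. Cox7b, a small subunit outside the naming rule, rose by 0.21 ± 0.062 in isotype lungs, but its fall in anti-RGMb lungs (-0.18 ± 0.062) lost the call in 13 of the 17 fits without 1 mouse (adjusted p up to 0.138).

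The 2 forms of subunit 4 moved in opposite directions. Cox4i1, the widespread form, had levels of -0.01, 0.09 and 0.22 in anti-RGMb mice, 0.32, 0.28, 0.12, 0.25 and 0.52 in isotype mice and -0.08, -0.00 and 0.12 in saline mice. Of the isotype mice only mouse 3 overlapped with the other groups, and the other 4 lay above all their mice. It rose by 0.31 ± 0.059 in isotype lungs (adjusted p = 0.000459 by limma) and fell by 0.21 ± 0.059 in anti-RGMb against isotype lungs (adjusted p = 0.0167), which without isotype mouse 2-2 became -0.16 and did not pass (adjusted p = 0.0606). Cox4i2, the form known from lung, had levels of -0.28, -0.22 and -0.07 in anti-RGMb mice, -0.59, -0.42, -0.30, -0.64 and -0.99 in isotype mice and -0.12, -0.01 and 0.17 in saline mice. The isotype mice lay below all mice of both other groups. It was lower by 0.60 ± 0.084 in isotype than in saline lungs (adjusted p = 1.67e-05) and higher by 0.39 ± 0.084 in anti-RGMb than in isotype lungs (adjusted p = 0.00246). The difference of Cox4i2 and Cox4i1 within a mouse averaged -0.31 ± 0.13 in anti-RGMb mice (SD, n = 6), -0.88 ± 0.40 in isotype mice (SD, n = 5) and 0 ± 0.03 in saline mice, whose mean is the zero of this scale (SD, n = 6).

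Ndufa4, long counted with complex I and since placed in complex IV, also has a relative, Ndufa4l2, among the members. Ndufa4 had a change of 0.07 ± 0.074 in isotype lungs and did not pass (adjusted p = 0.54). Ndufa4l2 had levels of -0.39, -0.14 and 0.03 in anti-RGMb mice, -0.62, -0.40, -0.27, -0.70 and -1.02 in isotype mice and -0.11, -0.04 and 0.22 in saline mice. Every isotype mouse lay below every saline mouse, and isotype mouse 3 lay within the anti-RGMb range. It was lower by 0.62 ± 0.096 in isotype lungs (adjusted p = 5.57e-05 by limma) and higher by 0.46 ± 0.096 in anti-RGMb than in isotype lungs (adjusted p = 0.00198). The isotype minus saline change of Cox4i2 was -0.44 within experiment 1 and -0.82 within experiment 2, and that of Ndufa4l2 -0.43 and -0.86. The difference between experiments did not pass for either gene (adjusted p of the interaction by limma 0.345 and 0.376).

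Cox6b2, a form known from testis, was lower by 0.40 ± 0.108 in isotype lungs (adjusted p = 0.00634) and higher by 0.31 ± 0.108 in anti-RGMb lungs (adjusted p = 0.0473), and this second call was lost in 11 of the 17 fits without 1 mouse (adjusted p up to 0.159). Its widespread partner Cox6b1 had a change of 0.17 ± 0.063 and just missed the threshold (adjusted p = 0.0506). Cox8c, the testis form of subunit 8, had a change of -0.08 ± 0.109, and Cox8a, Cox6a1 and Cox7a2 had changes of 0.16, 0.06 and 0.14, none past the threshold. Cox7a2l rose by 0.16 ± 0.061 (adjusted p = 0.0432), a call lost in 10 of the 17 fits without 1 mouse (adjusted p up to 0.114).

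**Figure D2:**
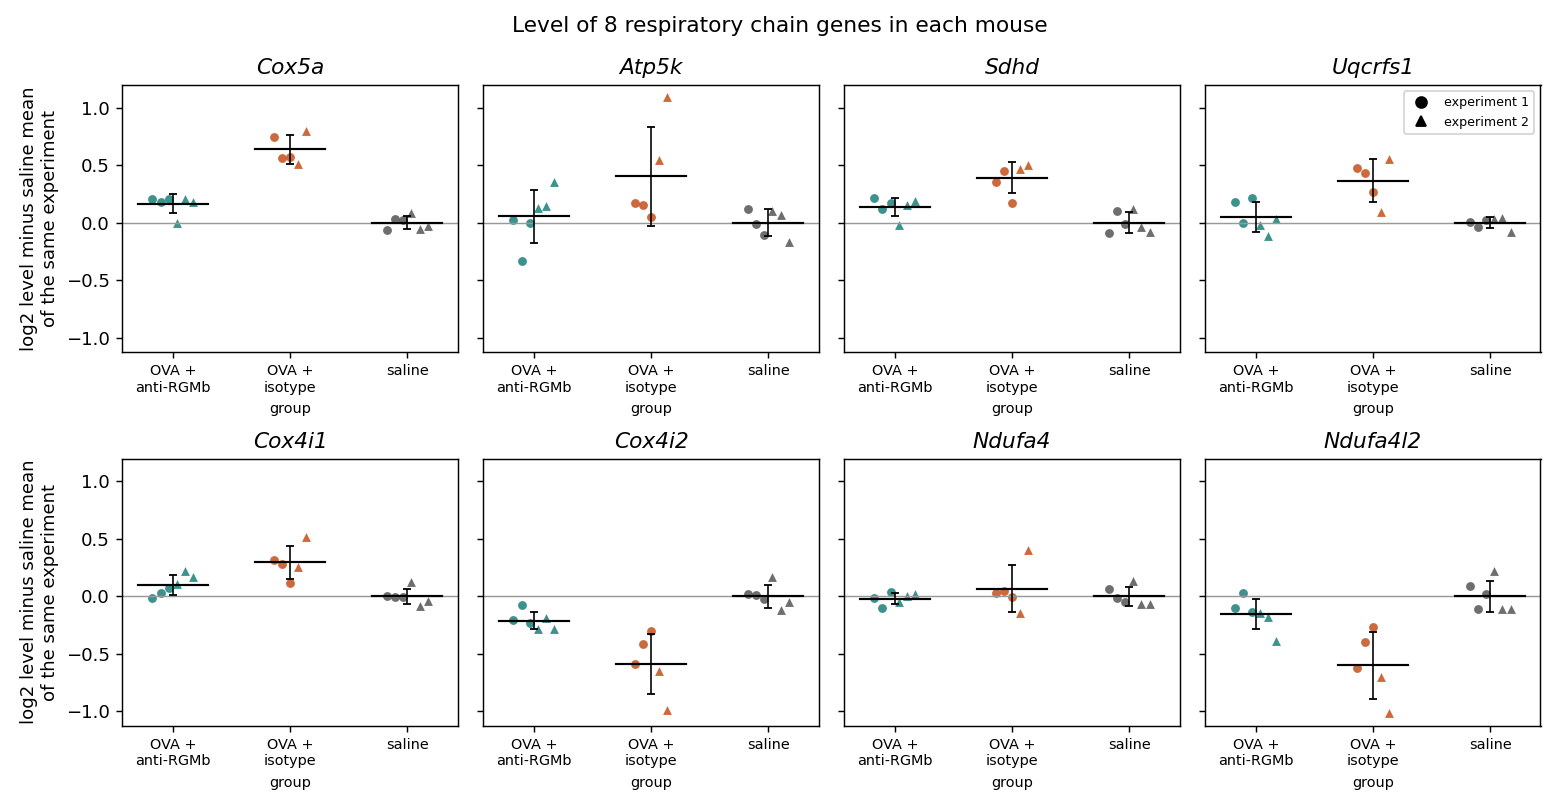
Log2 level minus the saline mean of the same experiment for 8 genes in each mouse, with anti-RGMb, isotype and saline mice from left to right, circles for experiment 1, triangles for experiment 2, and black lines for the mean and SD of each group. Cox5a, Sdhd and Uqcrfs1 are high in isotype mice, Cox4i2 and Ndufa4l2 are low there, Ndufa4 lies near 0 apart from 0.40 in isotype mouse 2-2, and Atp5k reaches 1.09 in isotype mouse 2-2.

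Markers of pericytes and smooth muscle, the vessel wall cells known to express Cox4i2 and Ndufa4l2 in mouse lung, were also examined. Of 14 such genes measured, a list chosen after the values were seen, 9 were lower and 1 higher in isotype than in saline lungs, and 8 passed in anti-RGMb against isotype lungs, all of them higher. The background over all genes was 14.6% higher and 21% lower in the first comparison and 11.1% higher and 10% lower in the second. The mean of the list lay at -0.27 to 0.02 in anti-RGMb, -0.49 to -0.10 in isotype and -0.11 to 0.12 in saline mice. The groups overlapped, with isotype mouse 2 within the saline range and anti-RGMb mouse 1 below isotype mice 2 and 3. Of 14 hypoxia-responsive genes, also chosen after the values were seen, 7 were lower and 1 higher in isotype lungs, among them Vegfa (-0.63 ± 0.063), the endothelial growth factor, and Egln3 (1.02 ± 0.120), an oxygen-sensing hydroxylase. The count depends on this choice, which left out the glycolysis genes Pgk1, Slc16a3 and Pfkp, all higher in isotype lungs. The part of vessel wall cells or of low oxygen in the fall of Cox4i2 and Ndufa4l2 was not tested.

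Complex V, the ATP synthase, had the largest share of genes that rose. Of its 17 genes 10 passed in isotype against saline lungs, all of them higher (16 of 17 changes above 0, median 0.21), and 9 passed in anti-RGMb against isotype lungs, all of them lower (median -0.17). These are 58.82% and 52.94%, beside 14.6% of all genes higher in the first comparison and 10% lower in the second. The mean over the complex was 0.04 ± 0.06 in anti-RGMb mice (SD, n = 6), 0.23 ± 0.07 in isotype mice (SD, n = 5) and 0 ± 0.06 in saline mice (SD, n = 6). Its range in isotype mice, 0.14 to 0.33, lay above the ranges in anti-RGMb mice (-0.03 to 0.10) and saline mice (-0.06 to 0.10).

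Atp5b, the beta subunit where ATP is made, had a change of 0.10 ± 0.042 and did not pass (adjusted p = 0.0868), and the alpha subunit Atp5a1 rose by 0.19 ± 0.047. The 7 genes of the complex that did not pass in isotype against saline lungs, Atp5b, Atp5d, Atp5e, Atp5g1, Atp5h, Atp5j and Atp5md, had changes of -0.05 (Atp5j) to 0.17 (Atp5md). Atp5o, which links the head to the peripheral stalk, had levels of -0.03, 0.04 and 0.07 (lowest, median and highest) in anti-RGMb mice, 0.37, 0.30, 0.14, 0.53 and 0.52 in isotype mice and -0.10, 0.00 and 0.08 in saline mice. The isotype mice lay above all mice of the other groups. Its changes were 0.38 ± 0.060 (adjusted p = 6.57e-05 by limma) and -0.36 ± 0.060 (adjusted p = 0.00037). Atp5pb, the b subunit of the stalk, and Atp5c1, the gamma subunit that turns inside the head, rose by 0.33 ± 0.063 and 0.26 ± 0.047. Both stand outside the naming rule, as do Atp5a1 and Atp5b.

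Subunit c, which forms the rotor ring in the membrane, is encoded by Atp5g1, Atp5g2 and Atp5g3, whose products share the mature protein and differ in the mitochondrial import signal. By the brightest probe set of each gene Atp5g3 rose the most, with levels of 0.09, 0.14 and 0.25 in anti-RGMb mice, 0.50, 0.49, 0.27, 0.42 and 0.41 in isotype mice and -0.05, -0.01 and 0.06 in saline mice, so that the 3 groups did not overlap. Its change was 0.41 ± 0.048 in isotype against saline lungs (adjusted p = 2.65e-06 by limma), -0.26 ± 0.048 in anti-RGMb against isotype lungs (adjusted p = 0.000877) and 0.15 ± 0.046 in anti-RGMb against saline lungs (adjusted p = 0.0552). Atp5g2 rose by 0.24 ± 0.079 (adjusted p = 0.0249), a call lost without any 1 of saline mice 2, 3 or 2-2 or isotype mice 2 or 1-2, and its 3 probe sets gave changes of 0.24 (the brightest), 0.50, which is above the change of Atp5g3, and -0.06. Atp5g1 had a change of 0.16 ± 0.080 and did not pass (adjusted p = 0.145).

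Atp5k, subunit e of the membrane part, showed the largest rise of the complex but mostly in experiment 2. Its levels were -0.33, 0.08 and 0.36 in anti-RGMb mice, 0.17, 0.16, 0.05, 0.55 and 1.09 in isotype mice and -0.17, 0.02 and 0.12 in saline mice. Only the isotype mice of experiment 2 lay above all anti-RGMb mice. The change of 0.43 ± 0.123 in isotype lungs (adjusted p = 0.00963) was 0.13 within experiment 1 and 0.82 within experiment 2, and the change of -0.38 ± 0.123 in anti-RGMb lungs (adjusted p = 0.0341) was -0.23 without isotype mouse 2-2 (adjusted p = 0.121), and was also lost without isotype mouse 1-2 or anti-RGMb mice 2, 1-2 or 2-2. Other small membrane subunits, outside the naming rule, rose by 0.41 ± 0.071 (Atp5mpl), 0.40 ± 0.087 (Atp5l) and 0.21 ± 0.044 (Atp5j2).

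**Figure D3:**
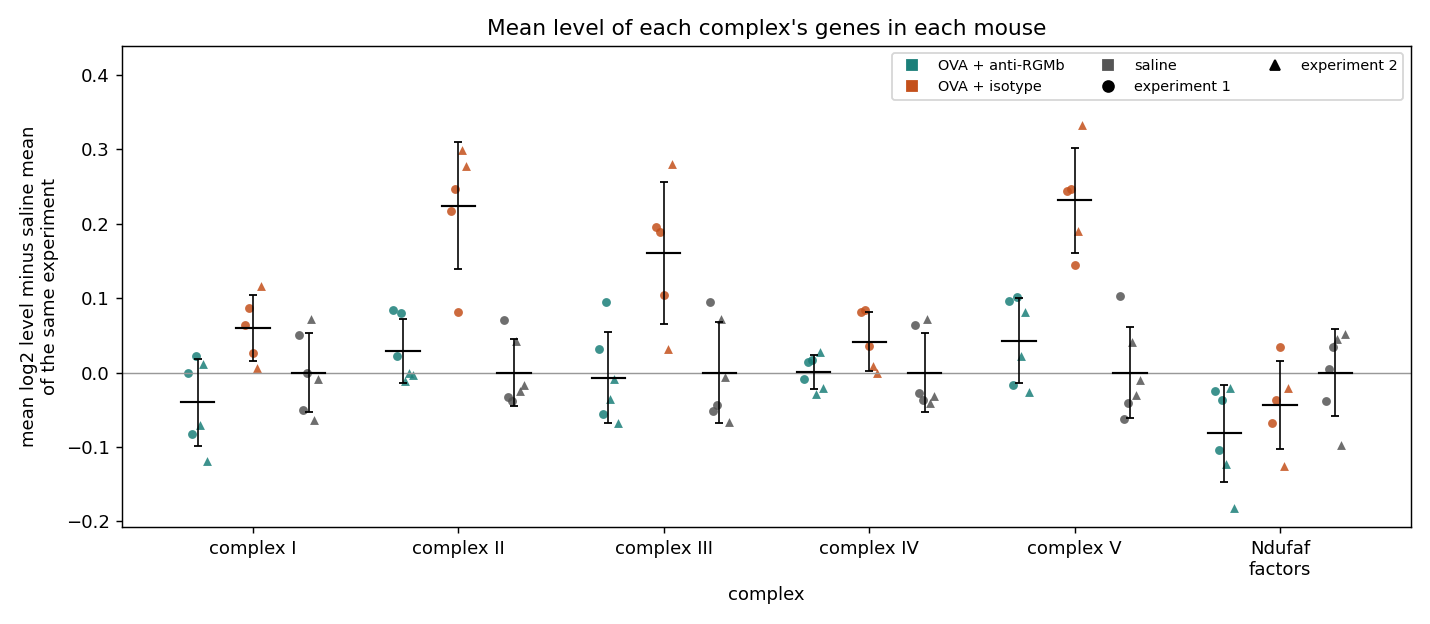
Mean log2 level of the genes of each complex in each mouse, minus the saline mean of the same experiment, with anti-RGMb, isotype and saline mice from left to right, circles for experiment 1, triangles for experiment 2, and black lines for the mean and SD of each group. The isotype mice lie above both other groups for complex V (0.14 to 0.33), while for complexes I, III and IV they overlap with saline mice.

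Promoters are shown for 4 genes that rose in isotype against saline lungs, Cox5a, Atp5k, Sdhd and Uqcrc1, which were picked by hand. Nuclear respiratory chain genes are known to share a small set of regulators, among them NRF1, ETS factors such as GABP, YY1 and oestrogen-related receptors (ERR). RefSeq gave promoters of 300 bases, from 250 before to 50 after the outermost gene start (GRCm38.p6), for 71 of the 86 genes. The letters CGCATGCG (NRF1), CCGGAAG (ETS), AAGATGGC (YY1) and AAGGTCA (ERR) were searched on both strands and stand in capitals below. These motifs do not contain each other.
Cox5a: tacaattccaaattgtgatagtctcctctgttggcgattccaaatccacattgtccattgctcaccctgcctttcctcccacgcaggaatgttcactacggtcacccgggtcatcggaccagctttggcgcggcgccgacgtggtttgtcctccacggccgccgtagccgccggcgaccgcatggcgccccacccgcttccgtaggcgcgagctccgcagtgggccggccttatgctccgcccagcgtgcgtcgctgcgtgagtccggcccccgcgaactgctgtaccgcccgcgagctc
Atp5k: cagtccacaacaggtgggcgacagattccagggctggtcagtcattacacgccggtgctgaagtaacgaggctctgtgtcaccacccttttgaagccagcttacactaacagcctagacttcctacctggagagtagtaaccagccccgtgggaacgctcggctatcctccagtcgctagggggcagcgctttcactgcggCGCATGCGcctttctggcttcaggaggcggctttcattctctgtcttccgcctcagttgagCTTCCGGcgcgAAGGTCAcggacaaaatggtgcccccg
Sdhd: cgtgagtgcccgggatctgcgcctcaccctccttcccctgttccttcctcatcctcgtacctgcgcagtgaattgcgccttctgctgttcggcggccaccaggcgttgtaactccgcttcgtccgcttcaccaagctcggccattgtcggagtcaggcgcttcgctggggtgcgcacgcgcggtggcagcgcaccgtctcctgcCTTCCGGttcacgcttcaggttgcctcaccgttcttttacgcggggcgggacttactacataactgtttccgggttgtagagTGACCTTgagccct
Uqcrc1: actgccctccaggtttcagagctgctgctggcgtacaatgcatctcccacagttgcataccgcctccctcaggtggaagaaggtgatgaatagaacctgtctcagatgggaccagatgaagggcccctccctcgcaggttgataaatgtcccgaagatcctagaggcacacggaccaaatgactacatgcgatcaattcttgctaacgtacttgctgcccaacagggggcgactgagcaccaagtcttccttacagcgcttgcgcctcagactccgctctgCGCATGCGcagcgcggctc
The Cox5a window (chr9:57520982-57521281, plus strand) holds none of the letters. The Atp5k window (chr5:108434350-108434649, minus strand) holds NRF1 letters at 49 bases before the start, ETS letters at position 13 after it, read on the other strand as CTTCCGG, and ERR letters at position 24. The Sdhd window (chr9:50603800-50604099, minus strand) holds the ETS letters 46 bases before the start and the ERR letters at position 37, both read on the other strand. The Uqcrc1 window (chr9:108936398-108936697, plus strand) holds the NRF1 letters at position 32. The window of Uqcrfs1, which rose more than Uqcrc1, is not shown and holds none of the letters. Positions are those of the first letter of the match.

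Over the matched members, NRF1 letters stood in 14.1% of promoters against 1.92% of all 27025 promoters, ETS letters in 23.9% against 9.14%, YY1 letters in 12.7% against 2.87% and ERR letters in 9.86% against 4.65%. Among the members that rose in isotype lungs 10 of 19 promoters held at least 1 of the 4, and among those that did not pass 24 of 48, against 17.3% of all promoters. The member promoters were also richer in G and C (median 58.33%, against 52.67% of all promoters), and a match of letters is no evidence that a factor binds.

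Of 17 genes of regulators of mitochondrial biogenesis, 2 passed in isotype against saline lungs, both higher. That is 11.76% higher and 0% lower, beside 14.6% higher and 21% lower over all genes. Ppargc1b, a coactivator of mitochondrial genes, rose by 0.77 ± 0.099 in isotype lungs (adjusted p = 7.5e-06) and fell by 0.52 ± 0.099 in anti-RGMb against isotype lungs (adjusted p = 0.0011). Pprc1, a relative of it, rose by 0.22 ± 0.083. Esrra, which encodes an ERR, had a change of 0.16 ± 0.069 (adjusted p = 0.084), and Nrf1 and Yy1 had changes of -0.00 and 0.06, none past the threshold.

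The 2 subunits of mitochondrial DNA that could be measured, listed as ND3 and COX2, had changes of -0.08 ± 0.054 and -0.02 ± 0.072 in isotype lungs and did not pass. Among 13 electron carriers and subunits with other symbols, 3 were higher and 1 lower in isotype lungs, and 4 passed in anti-RGMb against isotype lungs, all lower. Cyc1, the cytochrome c1 of complex III, changed by 0.23 ± 0.054 and -0.22 ± 0.054, and Cycs, cytochrome c itself, by 0.27 ± 0.076 and -0.25 ± 0.076. Of 35 assembly factors of the complexes, 2 (5.714%) were higher and 5 (14.29%) lower in isotype lungs, with a median of 0.00. Of 17 genes of pyruvate dehydrogenase and the citric acid cycle, 3 passed in isotype lungs, all higher, the malate dehydrogenase gene Mdh2 (0.35 ± 0.070), the citrate synthase gene Cs (0.31 ± 0.062) and the fumarase gene Fh1 (0.21 ± 0.058). Of 77 mitochondrial ribosomal protein genes, 13 (16.88%) were higher and 3 (3.896%) lower in isotype lungs, and 13 (16.88%) passed in anti-RGMb against isotype lungs, all lower. Over all genes 14.6% were higher and 21% lower in isotype lungs, and 11.1% were higher and 10% lower in anti-RGMb against isotype lungs. The 16.88% higher in isotype lungs is thus near the background.

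Most glycolysis genes rose in isotype lungs. Of 16 measured, 9 were higher and 2 lower in isotype than in saline lungs (median 0.33), 1 was higher and 7 were lower in anti-RGMb than in isotype lungs (median -0.19), and 3 were higher in anti-RGMb than in saline lungs. The shares higher and lower over all genes were 14.6% and 21%, 11.1% and 10%, and 4.26% and 2.24% in these 3 comparisons. Pgk1, phosphoglycerate kinase, rose by 0.83 ± 0.067 in isotype lungs (adjusted p = 2.9e-08), Slc16a3, a lactate exporter, by 0.61 ± 0.069 and Pfkp, a phosphofructokinase, by 0.49 ± 0.056. Whether glycolysis and respiratory chain genes differed in their change was not tested.

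**Figure D4:**
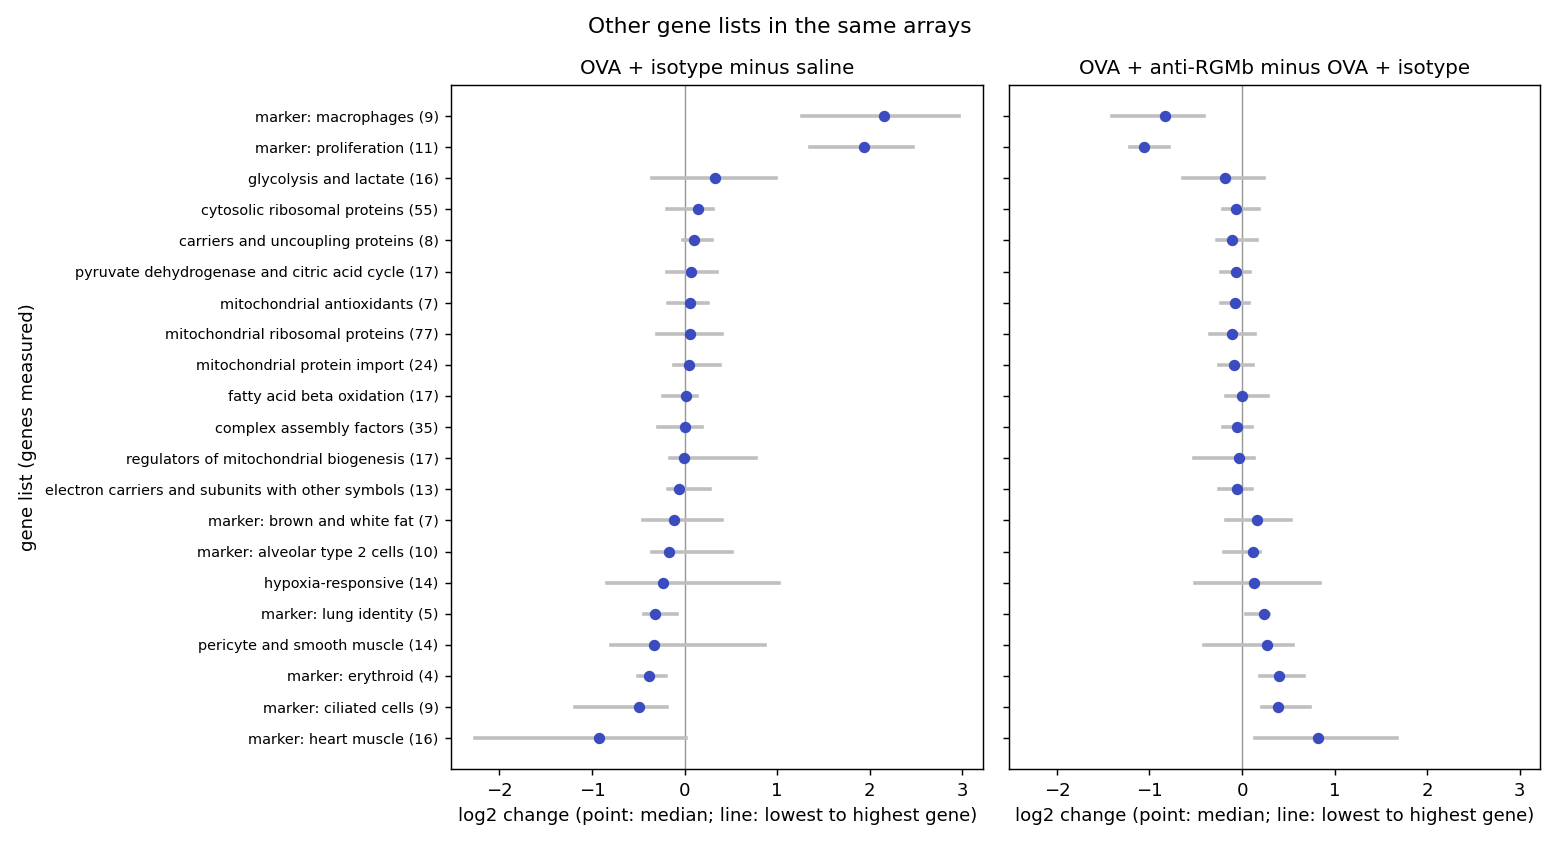
Log2 change of other gene lists in isotype minus saline lungs (left) and anti-RGMb minus isotype lungs (right), with points for the median and lines from the lowest to the highest gene of each list. Macrophage and proliferation lists have medians of 2.15 and 1.94 on the left, the mitochondrial lists lie near 0, and heart muscle markers lie at -0.92.

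Cell type markers moved in both directions. All 9 macrophage markers rose in isotype lungs (median 2.15), with list means of 1.04 to 1.41 in anti-RGMb, 1.81 to 2.30 in isotype and -0.19 to 0.11 in saline mice, and all 11 proliferation genes rose (median 1.94). Both lists were still higher in anti-RGMb than in saline lungs, 9 of 9 and 11 of 11 genes, where 0 of the 86 respiratory chain genes passed by limma. Heart muscle, which is rich in mitochondria and can be carried in lung samples, gave markers that fell in isotype lungs (13 of 16 lower, median -0.92). Their list means were -1.14 to 0.84 in anti-RGMb, -1.46 to -0.28 in isotype and -0.48 to 0.93 in saline mice. The muscle forms Cox8b, Cox7a1 and Cox6a2, left out of the members, fell by 1.21, 0.72 and 0.51 in isotype lungs. Erythroid markers fell too (3 of 4), as did all 9 markers of ciliated cells, which are rich in mitochondria, and 4 of 5 genes of lung identity. Over all genes 14.6% were higher and 21% lower in isotype against saline lungs. Lung identity genes such as Nkx2-1 and Cldn18 were measured in all lungs. The part of any of these cell types in the respiratory chain values was not tested.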

How the data were processed

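The deposited values are probe set intensity on a linear scale, made by the authors with RMA per the submitters' processing notes, of a version the sources used here do not give. The log2 of each value was taken with no added constant. Array medians were 120 to 125 in experiment 1 and 362 to 386 in experiment 2, and precision is limited by how many arrays there are. Of 24679 probe sets, the 21354 with 1 symbol in the platform annotation were used (1275 had several, 2050 none), with the brightest kept for 893 genes with more than 1. Among the members 17 had several probe sets, and in 7 of these the isotype minus saline changes of the probe sets differed in sign.

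All 19751 genes were fitted with limma 3.58.1 in R 4.3.3, with group means, an experiment term, moderated variances and 2-sided tests, and a second model gave values within each experiment and the interaction. The fit was tested on simulated data of 19751 genes, of which 67, 67 and 66 were changed by 0.25, 0.5 and 1 log2 unit. For isotype minus saline it recovered 28.4%, 85.1% and 100% of these, with 14 false calls of 156. For anti-RGMb minus isotype it recovered 34.3%, 89.6% and 97%, with 12 false calls of 159. In the deposited data many more genes passed, 2878 higher and 4156 lower in isotype against saline lungs. The adjusted threshold is then less strict, so the recovered shares do not carry over to these comparisons. Residuals of same-numbered mice had correlations between -0.6 and 0.297, of which 3 of 16 exceeded 0.1, and mice were treated as unpaired. P-values treat mice as replicates, 1 array each.

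Named members were, by complex and comparison, the 2 largest rises and 2 largest falls that passed and kept their sign in each experiment, together with the isoform families listed and all Sdh genes, 30 in all. Of other lists up to 3 genes with the smallest p were named. The members, lists and tests were chosen with earlier results of these data known. Alternatives covered normalization, a filter on dim genes, the probe set rule, the experiment term, a replicate block, the variance prior, each experiment alone and each mouse left out. Promoters came from RefSeq tables of GRCm38.p6, matched by gene ID, 1 per gene.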

Additional observations from a re-analysis of the deposited data

Results flagged for a closer look

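The levels of the 30 named members, the means of the complexes and of the Ndufaf genes and the mean of all 86 members were examined in each group, 111 sets of mice in all, and 9 held a mouse far from the others by Dixon's ratio of gap to range. These levels are log2 signals minus the fitted difference between the experiments, not minus the saline mean of each experiment as in the levels above, so gaps differ between the 2 scales. Chance alone marks about 1 in 20 groups. The ratio was 0.771 for Atp5g3 in isotype mice (mouse 3 low) and 0.659 for Atp5g3 in saline mice (mouse 1-2 high). Atp5k in isotype mice gave 0.741, where mouse 2-2 lay 0.61 above the group median on this scale, and Cox4i2 in saline mice gave 0.658 (mouse 1-2 high). Cox5a in anti-RGMb mice gave 0.787, with mouse 1-2 lower than the median by 0.18. Cox8c gave 0.753 in isotype mice (mouse 2-2 low) and 0.811 in saline mice (mouse 1 high). Ndufaf3 in anti-RGMb mice gave 0.776 (mouse 1 high) and Sdhc in anti-RGMb mice 0.691 (mouse 3-2 low).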

How the results depend on the processing

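Quantile normalization within experiment, median centring, averaging all probe sets of a gene, leaving out the dimmest 40% of genes and an intensity trend with a robust prior gave 22 to 28 members higher and 6 to 7 lower in isotype against saline lungs, and 3 higher and 20 to 28 lower in anti-RGMb against isotype lungs. Between anti-RGMb and saline lungs they gave 2 higher with quantile normalization (Atp5g3 and Cox5a), 1 with the dimmest genes left out and 1 with the trend and robust prior (Atp5g3), and 0 otherwise. Without the experiment term, whose levels then enter the spread, 0 members passed in either direction of both comparisons, and the medians turned to -0.059 and 0.039. In experiment 1 alone 13 were higher and 3 lower in isotype lungs, and 0 higher and 5 lower in anti-RGMb against isotype lungs. In experiment 2 alone 17 were higher and 3 lower in isotype lungs, and 2 higher and 13 lower in anti-RGMb against isotype lungs. With the replicate block by mouse number, 14 in place of 23 were lower in anti-RGMb against isotype lungs, where Atp5k, Cox4i1, Cox6b2 and Ndufa1 lost the call, as Cox7a2l, Ndufaf3 and Ndufaf4 did in isotype against saline lungs. The cause was not tested.

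Leaving out each mouse in turn gave 21 to 28 members higher and 3 to 6 lower in isotype against saline lungs, with 3 lower without saline mouse 3, saline mouse 1-2 or isotype mouse 1-2. It gave 2 to 3 higher and 14 to 27 lower in anti-RGMb against isotype lungs, with 14 without isotype mouse 2-2, and 0 to 1 in each direction between anti-RGMb and saline lungs, where Atp5g3 passed without isotype mouse 3 or 2-2 and Cox4i2 without 2-2. Of the 29 calls in isotype against saline lungs 23 held in all 17 such fits, and of the 26 in anti-RGMb against isotype lungs 16 did. No change of a named member past the threshold turned its direction under any of these alternatives. With 5 and 6 mice, changes under about 0.25 log2 units passed for some genes and not for others, and several such calls were lost without 1 mouse. Larger changes lost the call too. In anti-RGMb against isotype lungs those of Atp5k, Ndufa1 and Cox6b2 lost it in 5, 10 and 11 of the 17 fits.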

Other observations

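Some fatty acid oxidation genes were lower in isotype lungs. Of 17 genes of beta oxidation 5 (29.41%) passed against saline lungs by limma, all lower, among them the acyl-CoA dehydrogenase gene Acadm (-0.23 ± 0.055), Eci1 (-0.23 ± 0.058) and Acaa2 (-0.23 ± 0.073), and Acaa2 was higher by 0.28 ± 0.073 in anti-RGMb than in isotype lungs. The list as a whole did not fall in isotype lungs, with a median of 0.02 and 10 of the 17 changes above 0. Of 8 carriers of the mitochondrial membranes 3 were higher in isotype lungs, the pore protein genes Vdac2 (0.30 ± 0.066) and Vdac1 (0.17 ± 0.049) and the ADP/ATP exchanger gene Slc25a5 (0.22 ± 0.053), and 3 were lower in anti-RGMb against isotype lungs. Of 7 antioxidant genes of mitochondria 2 rose in isotype lungs, the superoxide dismutase gene Sod2 (0.25 ± 0.056) and the peroxiredoxin gene Prdx3 (0.23 ± 0.084). Of 24 import genes 1 rose, Timm23 of the inner membrane channel (0.38 ± 0.057). The shares over all genes were 14.6% higher and 21% lower in isotype lungs, and 11.1% higher and 10% lower in anti-RGMb against isotype lungs.

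Cytosolic ribosomal protein genes rose in 23 of 55 cases (41.82%, beside 14.6% of all genes) in isotype lungs, with a median of 0.14. In anti-RGMb against isotype lungs 2 fell (3.636%, beside 10% of all genes), with a median of -0.07. Fat markers gave 0 of 7 past the threshold by limma in each comparison, with 0 at an unadjusted p under 0.05 in isotype against saline, 2 in anti-RGMb against isotype and 1 in anti-RGMb against saline lungs. Of 10 markers of alveolar type 2 cells 1 was higher (Sftpd, 0.52 ± 0.061) and 6 lower in isotype lungs, beside 14.6% higher and 21% lower over all genes.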
